A study of Mus musculus with 9 samples.

Results

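The genes described here are the protein-coding genes of mouse chromosome 12 whose mean over the 9 libraries was at least 5 CPM (counts scaled to a common library size). Of 643 protein-coding genes annotated there and present in the count table, 331 reached this level, 10 of them were left out by name, and 321 remained (members in what follows). The whole table held 54838 genes, of which 13153 were tested, all members among them. The cells were PDA530 Met, a mouse pancreatic ductal adenocarcinoma line that came from a KPC male's liver metastasis, on a mixed 129/SvJae/C57Bl/6 background and untreated. There were 3 groups of 3 libraries. The parental cells were the line itself. The knockout clone (E4) was a single-cell clone in which CRISPR/Cas9 had edited Zdhhc20, a palmitoyltransferase gene on another chromosome. The control clone (C5) was a single-cell clone nucleofected with the same guide RNAs that escaped editing and expresses Zdhhc20. Each clone is 1 clone, so its 3 libraries repeat that clone and do not show how other clones vary.

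A chromosome joins genes of unrelated function, so a shift shared by its genes differs in kind from a change in a pathway. Cancer cell lines often differ from cell to cell in how many copies of a chromosome or chromosome arm they carry. A clone grown from 1 cell starts from the state of that cell. RNA levels of many genes follow their copy number, although feedback on single genes can blunt or override this. Mouse chromosome 12 also carries the immunoglobulin heavy chain genes and the imprinted Dlk1-Dio3 domain. The DNA of these cells was not analysed here, and the part of copy number in the results was not tested.

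The chromosome had been chosen because its genes were lower in clone E4 than in clone C5. Its median there was -0.23, and chromosomes 16 and 9 were lower, at -0.32 and -0.49. For chromosome 12 the libraries placed the difference elsewhere. Relative to the parental cells, the median member stood at 0.26, 0.27 and 0.27 on the log2 scale in the 3 C5 libraries and at 0.03, 0.05 and 0.05 in the 3 E4 libraries. By these medians, given as a description, the members lay above the parental level in clone C5 and near it in clone E4, and they are called here by their chromosome and not as genes lowered by the knockout. The parental libraries themselves lay between -0.01 and 0.00 on the same scale, which takes log2 of CPM plus 0.5 and subtracts the mean of the parental libraries.

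**Figure D1:**
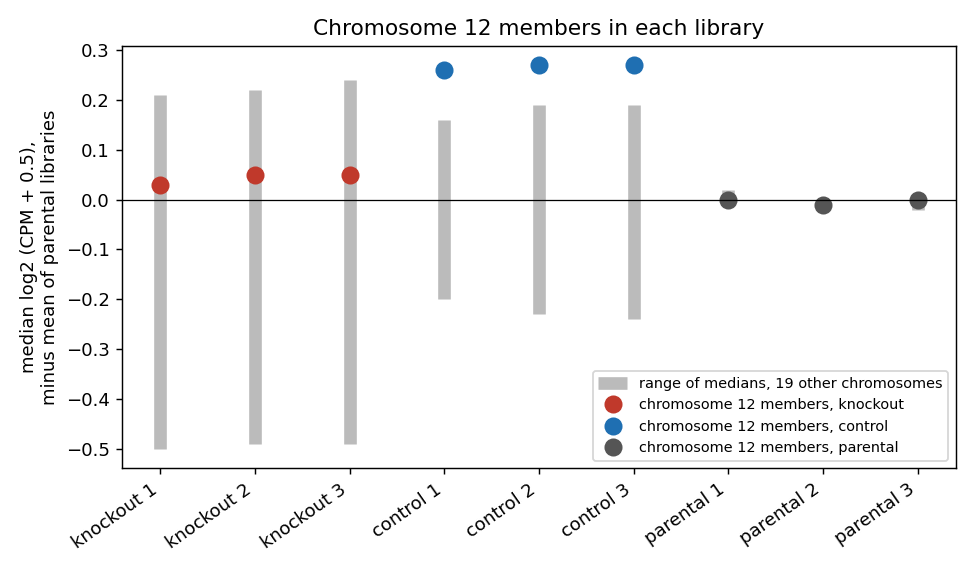
Median log2 (CPM + 0.5) of the 321 members in each library, minus the mean of the parental libraries (points), with the range of the same median over the 19 other chromosomes with at least 100 genes (grey bars). The 3 control points lie at 0.26 to 0.27, above their grey bars, which end at 0.16 to 0.19, while the knockout points at 0.03 to 0.05 lie within theirs.

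Upstream sequences of 5 members are given so that start sites of members with different patterns can be compared. Ckb, Dlst and Egln3 were higher in clone C5 than in the parental cells, Map3k9 was the member lowest in it, and Rhob ranked first among members whose 3 E4 libraries lay above the other 6. Each is the 250 bases before the RefSeq start (build GRCm38.p6, all on chromosome 12), read 5′ to 3′ on the strand of the gene. Capitals mark 3 motifs searched on both strands, which do not overlap each other in these windows: the GC box GGGCGG, the CCAAT box CCAAT and the TATA box TATAAA. The windows are chr12:111672339-111672588 (minus strand) for Ckb, chr12:85110583-85110832 (plus strand) for Dlst, chr12:54203875-54204124 (minus strand) for Egln3, chr12:81781171-81781420 (minus strand) for Map3k9 and chr12:8500010-8500259 (minus strand) for Rhob.
Ckb: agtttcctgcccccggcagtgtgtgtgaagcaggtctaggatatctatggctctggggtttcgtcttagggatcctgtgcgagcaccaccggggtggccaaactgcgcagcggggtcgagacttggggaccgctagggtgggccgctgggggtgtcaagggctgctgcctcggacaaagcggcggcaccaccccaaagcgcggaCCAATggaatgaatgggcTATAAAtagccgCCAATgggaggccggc
Dlst: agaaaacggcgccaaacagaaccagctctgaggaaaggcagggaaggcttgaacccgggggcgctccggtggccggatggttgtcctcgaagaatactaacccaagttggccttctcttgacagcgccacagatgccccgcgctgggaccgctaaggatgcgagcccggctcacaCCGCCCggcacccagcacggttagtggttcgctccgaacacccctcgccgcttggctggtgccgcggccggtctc
Egln3: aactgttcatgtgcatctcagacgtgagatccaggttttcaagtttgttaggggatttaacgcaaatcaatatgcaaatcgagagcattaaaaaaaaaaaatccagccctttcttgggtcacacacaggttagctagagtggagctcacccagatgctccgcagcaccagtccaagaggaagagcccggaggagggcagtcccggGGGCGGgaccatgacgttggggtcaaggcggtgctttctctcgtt
Map3k9: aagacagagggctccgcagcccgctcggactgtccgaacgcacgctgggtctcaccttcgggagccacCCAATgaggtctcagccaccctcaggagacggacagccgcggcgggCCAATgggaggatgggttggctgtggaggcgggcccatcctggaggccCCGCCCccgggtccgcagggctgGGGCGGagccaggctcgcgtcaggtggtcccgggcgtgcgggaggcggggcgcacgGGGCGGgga
Rhob: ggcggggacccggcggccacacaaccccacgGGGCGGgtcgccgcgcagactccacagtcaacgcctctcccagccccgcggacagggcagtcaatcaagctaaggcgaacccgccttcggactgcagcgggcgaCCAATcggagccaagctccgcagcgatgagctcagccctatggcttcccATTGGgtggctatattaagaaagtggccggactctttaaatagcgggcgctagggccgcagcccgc

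These start sites differed. Ckb held 2 CCAAT boxes and 1 TATA box at 62.8% G or C, Dlst 1 GC box at 64.8%, Egln3 1 GC box at 50.8%, Map3k9 3 GC boxes and 2 CCAAT boxes at 74% and Rhob 1 GC box and 2 CCAAT boxes at 66%. Of 278 members matched by symbol and strand to a RefSeq start, 61.5% held a GC box, 36.3% a CCAAT box and 4.68% a TATA box, against 32.7%, 33.8% and 12.4% of 32817 windows of all genes, which include genes with no count here. The median G or C share was 63.2% for the 104 matched members that rose in clone C5 and 61.2% for the 170 that were not called. A motif match describes letters and is not evidence of a bound factor.

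Total counts per library ranged from 16525869 to 23192701, and the members took 2.27% to 2.84% of them. Zdhhc20 was at 37.5, 33.9 and 42.5 CPM in the E4 libraries, at 123, 85.8 and 120 CPM in the C5 libraries, with the parental cells at 75.3, 81.2 and 90.7 CPM. Of 7 ductal epithelial markers all had counts, with a summed level of 4318 to 4446 CPM in clone E4, 7008 to 9379 CPM in clone C5 and 6696 to 8165 CPM in the parental cells. Epcam, a marker of this lineage, reached at most 0.635 CPM. The lists for leukocytes, endothelium, hepatocytes and acinar cells each summed to at most 0.647 CPM in any library, and of 3 fibroblast markers only Pdgfra had counts. The C5 libraries differed most among themselves, with a median SD of 0.187 over members on the log2 scale against 0.0741 in clone E4 and 0.0841 in the parental cells. Nothing in the labels says that the libraries came from separate cultures, so p-values measure the spread between these libraries. Each gene had 1 estimate of the spread, shared by the 3 groups. For genes more variable in clone C5, p-values and SEs of C5 comparisons thus rest partly on the steadier groups.

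Setting the unedited control clone beside the parental cells asks how such a clone differed from its line, and here the members moved together. Of the 321 members, 120 rose and 4 fell in clone C5 (edgeR quasi-likelihood test, Benjamini-Hochberg adjusted p under 0.05 over all 13153 genes). Among all genes tested, 10.4% were called higher and 11.0% lower, against 37.4% and 1.25% of the members. The median member was 0.27 higher on the log2 scale, a fold of 1.21, and the median of all genes tested was 0.01. A value above 0 was found for 281 members, 87.5%, against 51.3% of all genes tested. The 3 C5 libraries all lay above the 3 parental libraries for 159 members, 49.5%, where 18.2% of all genes did. The C5 libraries also enter the comparison for which the chromosome was chosen, so this comparison is not independent of the choice. Leaving out parental replicates 1, 2 or 3 lowered the count of raised members to 61, 52 or 64. The fit of only these groups gave 64. Calls over all genes, in either direction, fell in the same fits, from 2814 to 1472, 1537 or 1792, and to 1525. The median member stayed between 0.26 and 0.29 with any 1 library left out. The count of lowered members was 9 without control replicate 3 and 2 without control replicate 1 or parental replicate 1 or 2. Of the 120 raised members, 50 were called in all 15 alternatives tried.

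The interquartile range of the members was 0.30 in clone C5 against the parental cells, from 0.13 to 0.44. For 9312 protein-coding genes of other chromosomes at the same level it was 0.39 around a median of -0.01. Those genes pool chromosomes with different medians. The range within any other single chromosome was not computed, so whether the members spread less than those of another chromosome was not tested. Among 20 chromosomes with at least 100 such genes, chromosome 12 had the highest median over 331 genes, with 0.18 for the next and -0.20 for the lowest. This ranking was seen before it was chosen for description and carries no test. Mitochondrial genes took 3.45% to 4.11% of the counts in the C5 libraries, 1.58% to 2.2% in the E4 libraries and 1.2% to 1.62% in the parental cells, and their part in the result was not tested. In bulk RNA, fewer cells with an altered level and a smaller change in every cell cannot be told apart.

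The size of the shift was similar across sets of members by mean CPM and by strand, and varied more by gene length. Split into 3 equal sets of 107 by mean CPM, the members had medians of 0.29, 0.28 and 0.27 from the lowest to the highest set, and genes of other chromosomes in the same ranges had medians of 0.03, -0.01 and -0.03. Split by the length of the gene, the 107 shortest had a median of 0.34, the middle set 0.25 and the longest 0.27, where genes of other chromosomes in the same ranges had 0.04, -0.01 and -0.08. Members on the plus strand had a median of 0.28 and those on the minus strand 0.27. Many members share sequence with another annotated gene, and since the strand setting of the counting is not given in the sources used here, reads of such pairs can be mixed. The 141 members that overlap no annotated gene had a median of 0.30 and the 180 others 0.27.

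The chromosome was picked on E4 against C5, and E4 against the parental cells uses the same E4 libraries, so the counts in both are a description without a test. Against clone C5, 145 members (45.2%) were called in either direction, where 42.9% of all genes tested were. Of these, 128 were lower and 17 higher, or 39.9% and 5.30%, beside 24.2% and 18.7% of all genes. The median member was -0.23 on the log2 scale, and 80 of 321 were above 0. Against the parental cells, 33 members were called lower and 51 higher, or 10.3% and 15.9%, beside 18.3% and 13.1% of all genes tested. The median there was 0.03, and 178 members were above 0. Leaving out knockout replicate 2 gave 85 lower against clone C5. The 17 higher became 7 without control replicate 1, 31 or 27 without control replicates 2 or 3, and 8, 11 and 8 without knockout replicates 1, 2 and 3. Calls over all genes in these fits ran from 4301 to 7204, beside 5643 with all 9 libraries. Against the parental cells, leaving out parental replicate 3 gave 21 lower and 21 higher, and the higher count was 26 without parental replicate 2 and 22, 32 and 26 without knockout replicates 1, 2 and 3. With only these groups fitted, 64 were called lower and 100 higher. That fit called 6840 of all genes in either direction, where the fit of all 9 libraries called 4131. Over all genes the calls were 2515 and 2795 without parental replicates 3 and 2. They were 2626, 2992 and 2804 without knockout replicates 1, 2 and 3. These comparisons share the E4 libraries. Counted over both, 31 members (9.66%) were called lower in clone E4 than in each other group, where 13.4% of all genes were, and 12 (3.74%) were called higher, where 8.19% were. By the same count over both its comparisons, 80 members (24.9%) were higher in clone C5 than in each other group, where 7.01% of all genes were, and 2 (0.623%) were lower, where 6.41% were. The parental cells were lower than each clone by this count for 22 members (6.85%), where 2.14% of all genes were, and higher for 2 (0.623%), where 3.70% were. Their 3 libraries lay below the other 6 for 66 members (20.6%) and above them for 2 (0.623%), where 6.45% and 8.75% of all genes did. The count of 80 for clone C5 was 40 without parental replicate 1 or 2 and 49 without parental replicate 3. It was 47, 49 and 53 without knockout replicates 1, 2 and 3. It was 52 without control replicate 1, 102 without control replicate 2 and 41 with only 2 groups in each fit. The share of all genes passing this count in these fits is not given here.

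Along the chromosome the shift had no clear edge. In all 12 windows of 10 Mb the median member was higher in clone C5 than in the parental cells, from 0.14 in window 10 (90 to 100 Mb, 11 members) to 0.39 in window 4 (30 to 40 Mb, 21 members). In windows 6, 8, 9, 11 and 12, which held 34 to 55 members each, the medians were 0.26, 0.30, 0.31, 0.23 and 0.34. In window 6 all 34 members, from G2e3 to Fbxo33, were above the parental level. Against clone C5, the median knockout value was below 0 in all 12 windows, from -0.40 in window 12 to -0.01 in window 7. Window 7 was above 0 without control replicate 2 (0.05) or knockout replicate 3 (0.03), at -0.11 without control replicate 3, and 0.00 without knockout replicate 2 or any 1 parental replicate. Without control replicate 3, windows 4 and 5 went from -0.25 and -0.21 to -0.09 and -0.04. Without control replicate 2, windows 5 and 11 went from -0.21 and -0.16 to -0.12 and -0.10, and without knockout replicate 2, windows 2 and 10 went from -0.22 and -0.13 to -0.14 and -0.06. Against the parental cells the median E4 value was above 0 in 9 windows and below in 3, from -0.05 to 0.22, a split that rests on single libraries for windows near 0. Window 10 went from 0.06 to -0.03 without knockout replicate 1, window 4 from -0.03 to 0.01 without knockout replicate 1 or 2, window 2 from -0.01 to 0.02 without parental replicate 1 and to 0.00 without knockout replicate 2, and window 9 from 0.03 to -0.00 without knockout replicate 3. Window 7 (60 to 70 Mb, 23 members, Klhl28 to Sav1) had a median of 0.22 in each clone against the parental cells.

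**Figure D2:**
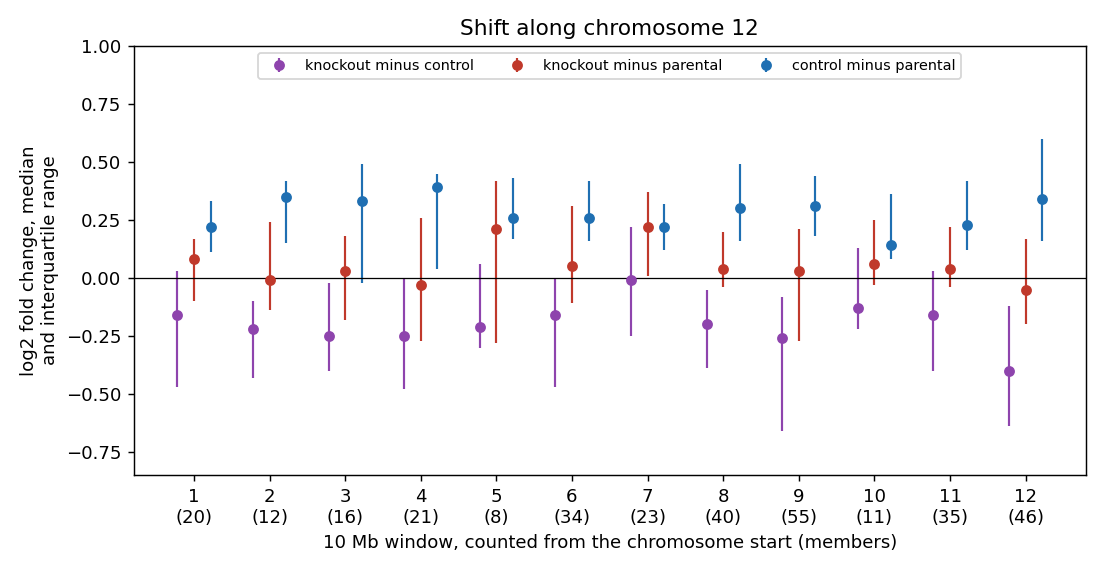
Median log2 fold change (points) and interquartile range (bars) of the members in each 10 Mb window, counted from the chromosome start, for the 3 comparisons. The control clone minus the parental cells lies above 0 in all 12 windows (0.14 to 0.39), and clone E4 minus the parental cells lies between -0.05 and 0.22.

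The C5 libraries did not agree in every window. In window 3 (Asap2 to Pxdn, 16 members) control replicates 1, 2 and 3 had medians of 0.22, -0.00 and 0.35 relative to the parental mean, and in window 2 they had 0.32, 0.08 and 0.50. Replicate 2 was thus at the parental level in window 3, and without control replicate 3 the fitted medians of windows 2, 3 and 5 went down to 0.14, 0.13 and 0.12 from 0.35, 0.33 and 0.26. In windows 8 and 9, with 40 and 55 members, the replicates had 0.28, 0.30 and 0.28, and 0.30, 0.32 and 0.28. The E4 libraries lay between -0.04 and 0.28 in all windows.

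Splitting the members in chromosome order accounted for little of their variation. The best split into 2 segments of at least 10 members took 1.12% of the variance of clone C5 against the parental cells, and the best split into 3 took 5.74%. The same splits of the mean of both knockout comparisons took 6.19% and 6.59%, with boundaries between Mta1 and Crip2 and between Mark3 and Ckb, and the 10 members at the far end include Cdca7l, which had no count in clone E4. With values limited to 1 either way, a choice made after the values were seen, they took 2.66% and 3.85% and the boundaries moved. At the boundary Mta1, a subunit of a histone deacetylase complex, had a log2 fold change of -0.32 for clone E4 against clone C5, and Crip2, a LIM domain protein, -0.22. Neighbouring members had correlations of -0.02, 0.05 and 0.05 in the 3 comparisons over 320 adjacent pairs, which describe genes of the same libraries.

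**Figure D3:**
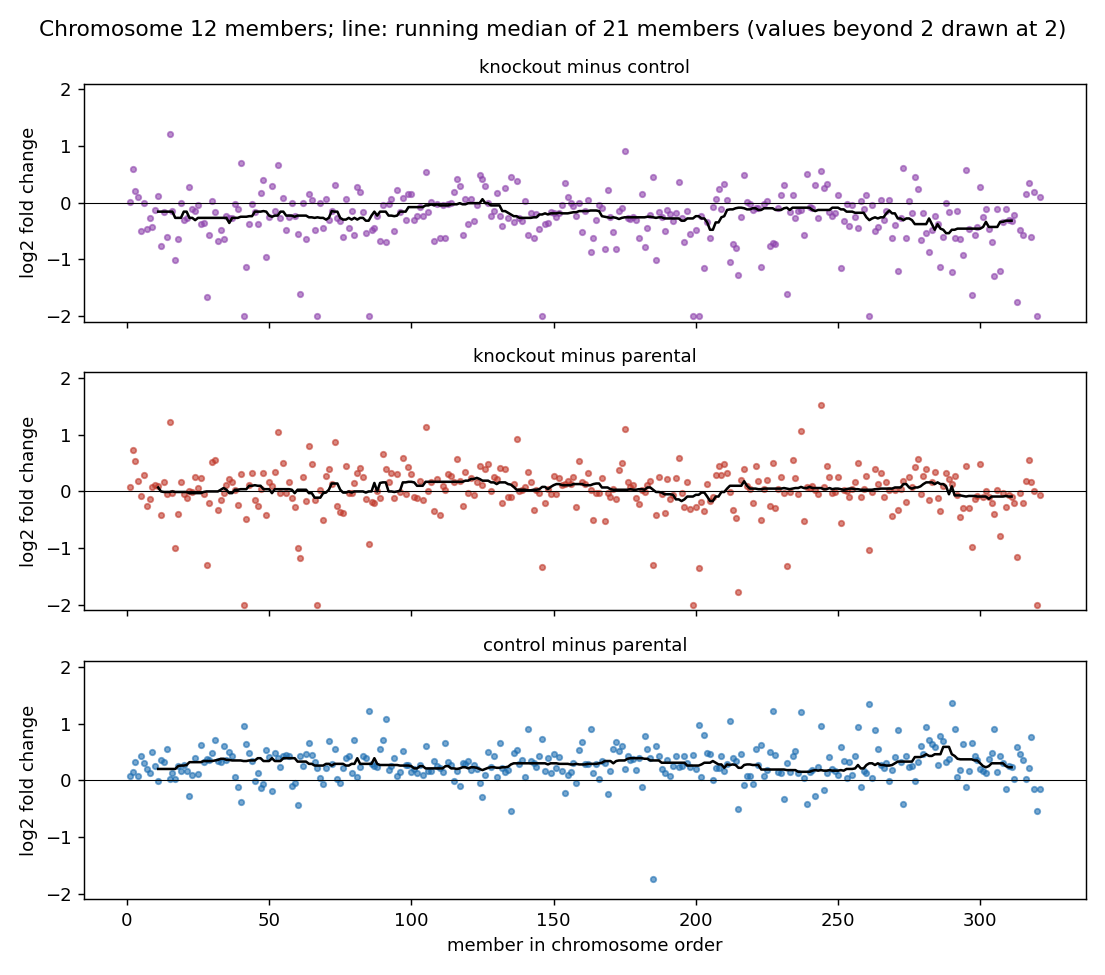
Log2 fold change of each of the 321 members in chromosome order, with a running median of 21 members (line), for the 3 comparisons, where values beyond 2 are drawn at 2. In the lowest panel the line for clone C5 minus the parental cells stays above 0 along the whole chromosome and is highest at member 287, Tnfaip2.

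That high point was a run of 13 members from Wdr20 to Trmt61a (chromosome 12 from 110737944 to 111683902 in GRCm38), picked by the 3-segment split and so given without a test of the run. All 13 were above the parental level in clone C5, with a median of 0.64, and 11 were called, values on which the split itself picked the run. Over all members 87.5% were above 0 and 37.4% called higher, and over all genes 51.3% and 10.4%. The run had medians of 0.55, 0.68 and 0.55 in the C5 libraries and 0.12, 0.28 and 0.16 in the E4 libraries. Without it, the other 308 members still had a median of 0.27. Rcor1, a scaffold of a histone demethylase complex that silences genes, was at 87.2, 93.5 and 98.8 CPM in the C5 libraries, 60.7, 59.2 and 58.8 CPM in the parental cells and 67.1, 64.8 and 68 CPM in the E4 libraries. No control library of Rcor1 overlapped the others, and it was 0.64 higher than in the parental cells (SE 0.07, edgeR adjusted p 0.000488). Wdr20, a partner of the deubiquitinases USP12 and USP46, was 0.60 higher (SE 0.08, edgeR adjusted p 0.0014), and Tecpr2, an autophagy protein, 0.94 higher (SE 0.15, edgeR adjusted p 0.00287). Each of these 3 calls held in all 15 alternatives. Traf3, an adaptor that restrains noncanonical NF-kappaB signalling, had 66, 74.5 and 46.4 CPM in the C5 libraries against 41.9, 43.3 and 39.4 CPM in the parental ones. It was 0.59 higher (SE 0.15, edgeR adjusted p 0.0224), and its adjusted p ran from 0.000409 to 0.0798 over the alternatives, losing the call in 5.

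The members that rose most in clone C5 were Ckb and Ifi27l2b, followed by Egln3 and Alkbh1 with the same log2 fold change of 1.22. Ckb makes the brain form of creatine kinase, which buffers ATP. It was at 28.1, 50 and 59.4 CPM in the C5 libraries, at 18, 16 and 19.4 CPM in the parental cells and at 18.2, 21.6 and 18.7 CPM in the E4 libraries. Every control library was above the other 6, and the log2 fold change against the parental cells was 1.36 (SE 0.24, edgeR adjusted p 0.00411). A filter on the mean favours genes that are high in 1 group, and 3 members, Ifi27l2b, Acyp1 and Atp5s, reached 5 CPM only through the C5 libraries, so a high C5 value was a condition of their being members. Ifi27l2b, a small mitochondrial membrane protein of an interferon-induced family with similar neighbouring copies, was at 10.5, 8.57 and 11.5 CPM in the C5 libraries, with the parental cells at 3.47, 4.48 and 4.06 CPM, a rise of 1.35 (SE 0.18, edgeR adjusted p 0.00136). It was at 2.25, 1.56 and 1.99 CPM in the E4 libraries, below both other groups, and its mean over the 6 libraries outside C5 was 2.96 CPM. Egln3 is an oxygen-sensing prolyl hydroxylase that marks hypoxia-inducible factors for destruction. Its control libraries were far apart, at 136, 65.6 and 197 CPM, against 41.6, 52.2 and 77.2 CPM in the parental cells. Control replicate 2 lay within the parental range, and the log2 fold change was 1.22 (SE 0.35, edgeR adjusted p 0.0357). Over the 15 alternatives it ran from 0.83 to 1.55 and its adjusted p from 0.00155 to 0.134. The call was lost in 8 of them, among them any 1 knockout library, control replicate 1 or 3 or parental replicate 1 or 2 left out.

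Only 4 members fell in clone C5 against the parental cells, and they were Map3k9, Nin, Cdca7l and Evl. Map3k9, a mixed-lineage kinase that feeds the JNK pathway, was at 4.76, 2.5 and 4.3 CPM in the C5 libraries, with the parental cells at 13.5, 13.9 and 11.7 CPM. Its log2 fold change was -1.75 (SE 0.21, edgeR adjusted p 0.000724), and at 5.27, 5.51 and 5.2 CPM it was also low in clone E4. Evl, an actin filament elongation factor of the Ena/VASP family, was at 33.6, 31.6 and 34.9 CPM against 47.5, 44.2 and 42 CPM, a log2 fold change of -0.42 (SE 0.08, edgeR adjusted p 0.00581). Both were called in all 15 alternatives. Map3k9 and Cdca7l reached 5 CPM only through the parental libraries, so a high parental value was a condition of their being members. Without the 6 members that passed through 1 group alone, which include Xrcc3 for clone E4, a choice made after the values were seen, 315 members had a median of 0.28, with 118 called higher and 2 lower. Evl falls outside the rule for named genes and completes the list of 4. Nin, a centrosome protein that anchors microtubules, had -0.54 (SE 0.15, edgeR adjusted p 0.0337, 0.00424 to 0.11 over the alternatives). Its call was lost without control replicate 1 (-0.52), knockout replicate 3 (-0.55) or parental replicates 1 or 2 (-0.47 and -0.53), and with only these groups fitted.

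Cdca7l, a MYC-interacting nuclear protein, had no count in the 3 E4 libraries. It was at 8.34, 8.57 and 7.61 CPM in the C5 libraries, with the parental cells at 10.9, 12.7 and 12.1 CPM. With a floor of 3 counts over the group, the level in clone E4 was at least 151-fold lower than that of clone C5 and at least 219-fold lower than in parental cells, bounds that cover counting error only. Cdca7l overlaps 2 annotated genes. In clone C5 its log2 fold change was -0.54 (SE 0.14, edgeR adjusted p 0.0284, 0.00754 to 0.102 over the alternatives). This call was lost without control replicate 1 (-0.56), without parental replicates 1, 2 or 3 (-0.62, -0.51 and -0.54), without a filter and with a replicate block. It was the only member with no count in a group.

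**Figure D4:**
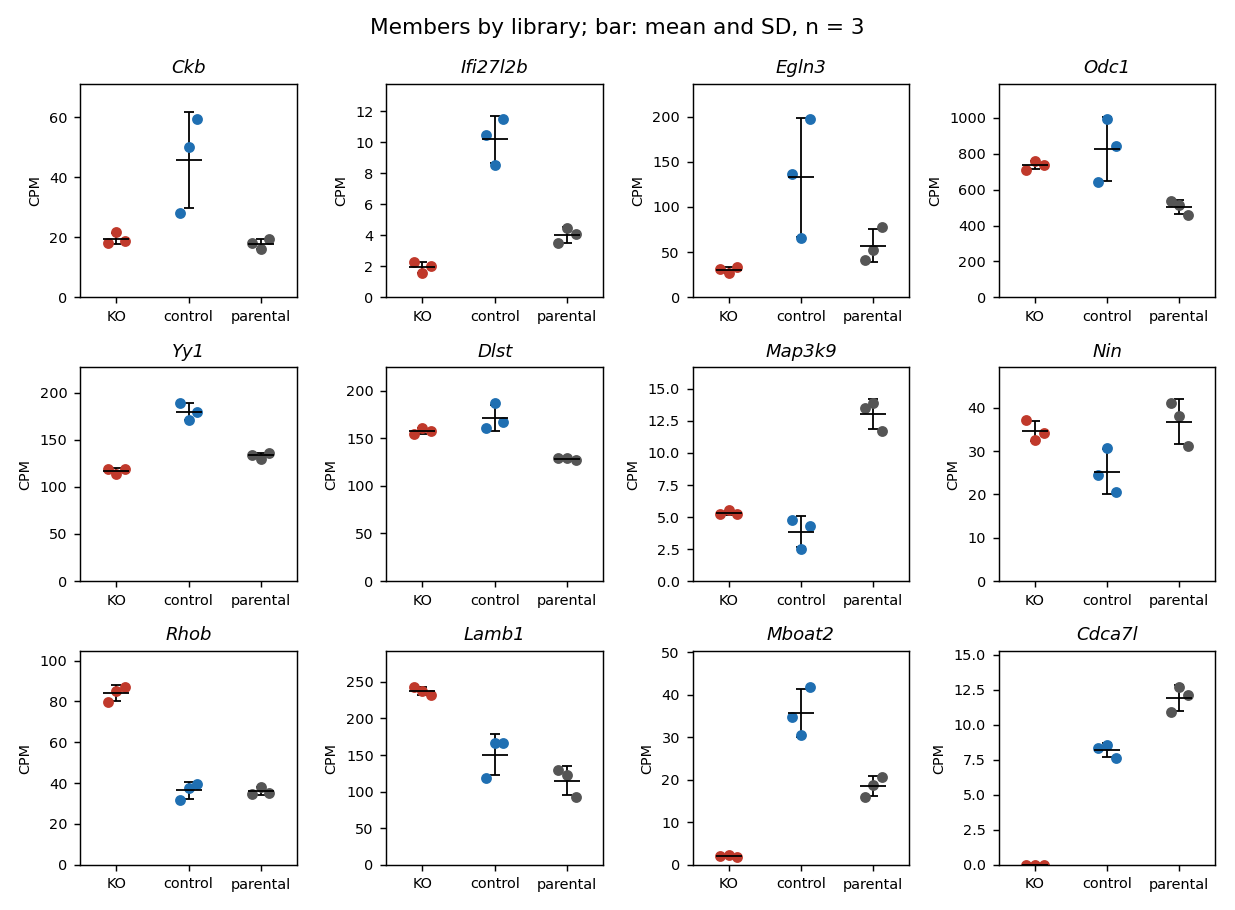
CPM of 12 members in each library (points) with the mean and SD of each group (n = 3, bars), on linear axes from 0. Ckb, Ifi27l2b, Yy1 and Mboat2 have all 3 C5 libraries above the other 6, Map3k9 is low in both clones, and Cdca7l is at 0 in clone E4.

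Among metabolic and mitochondrial members, 15 of 25 rose in clone C5 and 0 fell, where 37.4% of all members and 10.4% of all genes rose and 1.25% and 11.0% fell. Their median was 0.44, with 23 above 0, and how the 9 functional lists differ from each other was not tested. The lists were written from the known functions of chromosome 12 genes, and 173 members were on one. Odc1, the rate-limiting enzyme of polyamine synthesis, was at 640, 993 and 845 CPM in the C5 libraries, at 537, 512 and 459 CPM in the parental cells and at 712, 759 and 740 CPM in the E4 libraries. It rose by 0.72 (SE 0.14, edgeR adjusted p 0.00718) in clone C5, with all 3 of its libraries above the parental ones, and its knockout value against the parental cells was 0.55. Dlst, a subunit of the 2-oxoglutarate dehydrogenase complex of the citric acid cycle, was at 161, 187 and 167 CPM against 129, 129 and 127 CPM, a rise of 0.42 (SE 0.07, edgeR adjusted p 0.00415). Rdh11, a retinal reductase, was at 62.6, 51.4 and 47.4 CPM against 32.4, 35.3 and 33.1 CPM, a rise of 0.68 (SE 0.11, edgeR adjusted p 0.00258). All 3 calls held in the 15 alternatives. The list had a median of -0.38 in clone E4 against clone C5 and of 0.02 against the parental cells.

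Cytoskeletal, adhesion and matrix members had a median of 0.34 and 17 of 22 above 0, with 9 raised and 2, Nin and Evl, lowered in clone C5, beside 37.4% and 1.25% of all members and 10.4% and 11.0% of all genes. Cfl2, an actin-severing cofilin, was at 150, 155 and 146 CPM in the C5 libraries, with the parental cells at 101, 98.7 and 107 CPM, with the E4 libraries at 95.9, 86.1 and 101 CPM. It rose by 0.55 (SE 0.08, edgeR adjusted p 0.0016), and no control library overlapped the other 6. Klc1, a kinesin light chain that links the motor to its cargo, rose by 0.64 (SE 0.11, edgeR adjusted p 0.00355), and Ahnak2, a large scaffold protein, by 0.90 (SE 0.14, edgeR adjusted p 0.00241). These 3 calls held in all 15 alternatives. Sdc1 and Dync1h1, the members of this list with most counts, were not called in clone C5. Sdc1, a heparan sulphate proteoglycan of epithelial surfaces, was at 400, 304 and 291 CPM against 310, 325 and 339 CPM, and at 155, 174 and 161 CPM in the E4 libraries, below all others. Dync1h1, the heavy chain of the dynein motor, was at 339, 314 and 315 CPM in the E4 libraries, above the 193 to 283 CPM of the other 6.

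Of 21 transcription and chromatin members, 7 rose and 0 fell in clone C5, with a median of 0.23 and 12 above 0, where 87.5% of all members and 51.3% of all genes were above 0, and while 37.4% of all members and 10.4% of all genes rose and 1.25% and 11.0% fell. Yy1, a zinc finger factor that bridges enhancers and promoters, was at 189, 171 and 180 CPM in the C5 libraries, at 134, 130 and 136 CPM in the parental cells and at 119, 114 and 119 CPM in the E4 libraries. The 3 groups of Yy1 did not overlap, and the rise in clone C5 was 0.43 (SE 0.07, edgeR adjusted p 0.00248). Baz1a, a subunit of chromatin remodellers that space nucleosomes, was at 125, 166 and 109 CPM in the C5 libraries. The parental libraries were at 94, 76.6 and 73.9 CPM, a rise of 0.71 (SE 0.15, edgeR adjusted p 0.0105). In the E4 libraries Baz1a was at 130, 131 and 125 CPM, and its knockout value against the parental cells was 0.66. The C5 calls of Yy1 and Baz1a held in all 15 alternatives. Foxa1, a pioneer factor of endodermal tissue, was highest in clone E4, at 23.1, 19.4 and 24.2 CPM against 12.5, 18 and 15.6 CPM in clone C5 and 10.8, 11.1 and 8.41 CPM in the parental cells. Its log2 fold change in clone C5 was 0.60 (SE 0.17, edgeR adjusted p 0.0312, 0.00886 to 0.106 over the alternatives). This call was lost in 7 alternatives, among them control replicate 2 (0.47), knockout replicate 1 (0.58) or any 1 parental replicate left out (0.64, 0.65 and 0.47).

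Signalling members had a median of 0.22 and 21 of 24 above 0, with 9 raised and 1, Map3k9, lowered in clone C5, a share raised close to the 37.4% of all members, where 10.4% of all genes were raised and 11.0% lowered. Kidins220, a scaffold of neurotrophin and ephrin receptors, was at 116, 111 and 132 CPM in the C5 libraries, at 76.2, 74.2 and 79.7 CPM in the parental cells and at 53.7, 59.8 and 50.3 CPM in the E4 libraries. Its groups did not overlap, and it rose by 0.64 (SE 0.09, edgeR adjusted p 0.00168). Adam17, the protease that sheds ligands of the EGF receptor and tumour necrosis factor, rose by 0.43 (SE 0.07, edgeR adjusted p 0.00343), and both calls held in all 15 alternatives. Ywhaq, a 14-3-3 protein whose family has very similar copies elsewhere, was not called. Ywhaq had 478, 447 and 397 CPM against 418, 426 and 434 CPM, which overlap (0.05, SE 0.08, edgeR adjusted p 0.698).

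**Figure D5:**
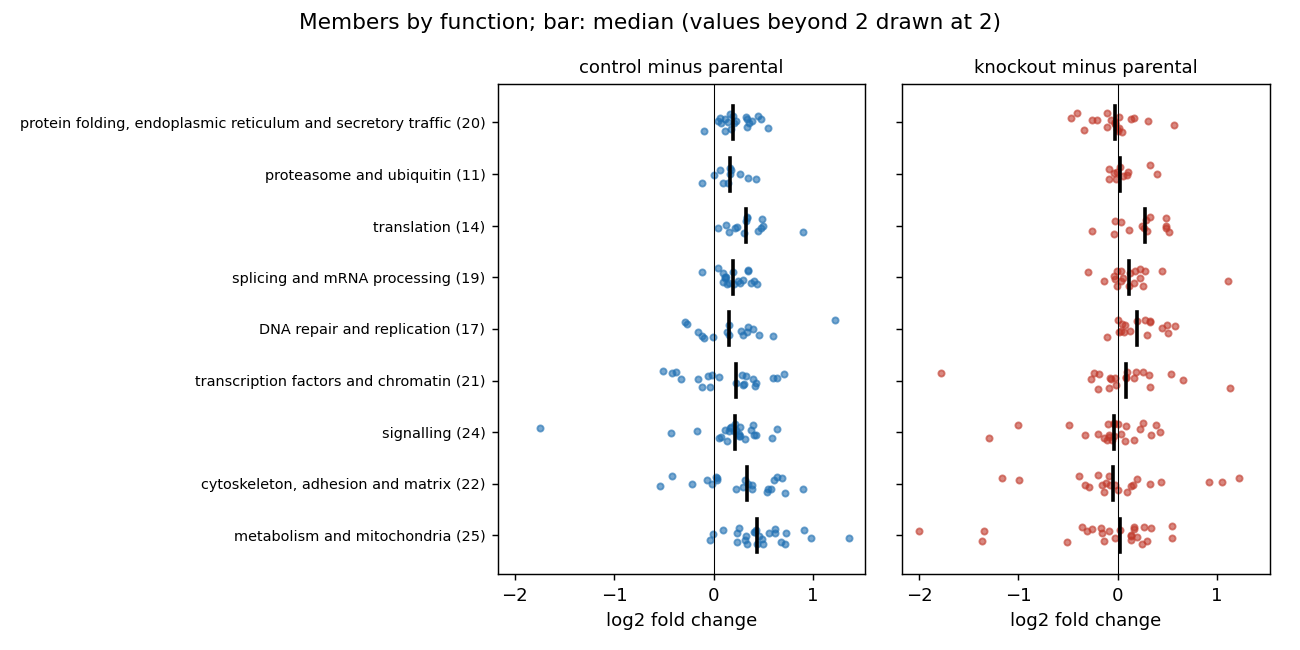
Log2 fold change of the members on each of 9 functional lists (points, 1 per member, number of members in parentheses), with the list median (bar), for clone C5 and clone E4 against the parental cells, where values beyond 2 are drawn at 2. The 9 medians lie between 0.16 and 0.44 in clone C5 and between -0.05 and 0.27 in clone E4.

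Translation members were above the parental level in 14 of 14 cases, 6 of them called, with a median of 0.33 in clone C5 and 0.27 in clone E4. Above 0 were 87.5% of all members and 51.3% of all genes, and 37.4% and 10.4% were called higher. Eif5, which triggers GTP hydrolysis at the start codon, was at 594, 712 and 590 CPM in the C5 libraries, at 639, 619 and 636 CPM in the E4 libraries, with the parental cells at 514, 500 and 495 CPM. Both clones were above the parental cells, and the rise in clone C5 was 0.33 (SE 0.08, edgeR adjusted p 0.0204, 0.00134 to 0.0774 over the alternatives), a call lost without any 1 parental replicate (0.33, 0.31 and 0.30) and with only these groups fitted (0.33). Nemf, which acts on stalled ribosomes, rose by 0.50 (SE 0.08, edgeR adjusted p 0.00364) and kept its call in all 15 alternatives. Eif2s1, the alpha subunit of initiation factor eIF2, had 248, 300 and 214 CPM against 207, 199 and 196 CPM and was not called (0.34, SE 0.11, edgeR adjusted p 0.0562). Rps29 and Rps7, proteins of the small ribosomal subunit with many pseudogene copies, were called at 0.31 and 0.48, and these calls were lost in 10 and 3 alternatives, with adjusted p up to 0.174 and 0.0946.

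Splicing and mRNA processing members had a median of 0.20, with 4 of 19 raised, 18 above 0 and 0 lowered. Of all members 37.4% and of all genes 10.4% were raised, and 1.25% and 11.0% were lowered. Ccnk, the cyclin partner of CDK12 that supports transcription of long genes, rose by 0.41 (SE 0.08, edgeR adjusted p 0.00886), a call that held in all 15 alternatives. Pum2, an RNA-binding repressor of translation, had 367, 384 and 321 CPM against 336, 326 and 321 CPM, and Papola, the canonical poly(A) polymerase, 310, 336 and 262 CPM against 264, 243 and 233 CPM, and neither was called. Protein folding and secretory members had a median of 0.20, with 4 of 20 raised, 19 above 0 and 0 lowered. Vti1b, a SNARE of late endosomes, rose by 0.55 (SE 0.08, edgeR adjusted p 0.00168) and held in all 15 alternatives. Hsp90aa1, the stress-inducible cytosolic chaperone, had 1447, 2053 and 1517 CPM in the C5 libraries, 1925, 2037 and 1959 CPM in the E4 libraries and 1429, 1338 and 1221 CPM in the parental cells. All clone libraries of Hsp90aa1 were above the parental ones, and the control value of 0.33 was not called (edgeR adjusted p 0.0932). Pdia6, a disulphide isomerase of the endoplasmic reticulum, was not called either (0.36, edgeR adjusted p 0.16).

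Proteasome and ubiquitin members had a median of 0.17, with 3 of 11 raised and 0 lowered, and DNA repair and replication members had 0.16, with 4 of 17 raised and 0 lowered. Above 0 were 9 of 11 and 11 of 17, where 87.5% of all members and 51.3% of all genes were. The shares raised were 37.4% over all members and 10.4% over all genes, and the shares lowered 1.25% and 11.0%. Psma3, a ring subunit of the proteasome core, was at 190, 205 and 203 CPM in the C5 libraries, with the parental cells at 148, 159 and 162 CPM. It rose by 0.35 (SE 0.09, edgeR adjusted p 0.0226), a call lost in 3 of 15 alternatives (adjusted p from 0.003 to 0.101). Psmc1, an ATPase of the proteasome cap, was not called (0.18). Alkbh1, a nucleic acid demethylase, was at 18.9, 30.8 and 17.8 CPM in the C5 libraries, with the parental cells at 9.63, 8.25 and 11 CPM, a rise of 1.22 (SE 0.21, edgeR adjusted p 0.0037) that held in all 15 alternatives, although the gene overlaps 4 others. Smc6, a subunit of the SMC5/6 repair complex, went the other way, at 127, 144 and 117 CPM against 165, 151 and 151 CPM, and was not called (-0.27, edgeR adjusted p 0.05, just over the threshold). Ncapg2, a condensin II subunit, had 175, 185 and 115 CPM against 184, 179 and 168 CPM and was not called.

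Some members stood apart in clone E4 itself, and these are given as values. The 3 E4 libraries lay above the other 6 for 20 members (6.23%) and below them for 58 (18.1%), where 15.6% and 18.6% of all genes tested did. Rhob, a small GTPase of endosomes and stress fibres, was at 79.7, 85.1 and 87.1 CPM in the E4 libraries and at 31.9 to 39.7 CPM in the other 6, with log2 fold changes of 1.21 against clone C5 and 1.22 against the parental cells. Zfp36l1, which speeds decay of AU-rich mRNAs, was at 64.2, 56.3 and 64.6 CPM against 26.5 to 38.8 CPM. Lamb1, the laminin beta chain of basement membranes, was at 243, 238 and 232 CPM against 92.6 to 167 CPM. Ttc7b, a scaffold of a phosphatidylinositol 4-kinase complex, was at 24.5, 27.3 and 24.4 CPM, above 14.6, 21.2 and 16.1 CPM in clone C5 and 9.39, 9.9 and 7.24 CPM in the parental cells. Its rise in clone C5 was 0.96 (SE 0.17, edgeR adjusted p 0.00406), a call kept in all 15 alternatives.

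After Cdca7l, the members lowest in clone E4 were Mboat2, Entpd5, Tspan13 and Aldh6a1. Mboat2, a lysophospholipid acyltransferase, was at 2.2, 2.23 and 1.87 CPM in the E4 libraries, at 34.9, 30.5 and 41.9 CPM in the C5 libraries, with the parental cells at 16, 18.9 and 20.8 CPM, and these 3 groups did not overlap. Its log2 fold changes in clone E4 were -4.08 and -3.14, and it was 0.95 higher in clone C5 than in the parental cells (SE 0.14, edgeR adjusted p 0.00214), which held in all 15 alternatives. Entpd5, a nucleotidase of the endoplasmic reticulum, was at 2.54, 1.56 and 2.51 CPM in the E4 libraries against 9.87 to 29.3 CPM in the other 6. Tspan13, a tetraspanin, was at 4.69, 6.18 and 5.61 CPM against 15.6 to 51.4 CPM. Aldh6a1, a mitochondrial dehydrogenase of valine breakdown, was at 5.37, 5.12 and 5.61 CPM against 11.7 to 40.8 CPM. In Entpd5, Tspan13 and Aldh6a1 the C5 libraries spread widely, and replicate 2 was the lowest of them in each.

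The member with most counts in a window gives a picture that does not depend on the direction of change. In window 1 it was Apob, the apolipoprotein of lipid particles secreted by liver and gut, at 1546, 2341 and 1383 CPM in the C5 libraries, 1627, 1324 and 1148 CPM in the parental cells and 1028, 1160 and 905 CPM in the E4 libraries. Its control and parental libraries overlapped, and it was not called between them (0.36, edgeR adjusted p 0.228). In 8 other windows these members were Odc1, Ywhaq, Lamb1, Rps29, Eif2s1, Srsf5, Zc3h14 and Hsp90aa1, whose values in clone C5 against the parental cells ran from -0.12 for Srsf5, a splicing factor, to 0.72 for Odc1. Of these 8, Odc1 and Rps29 were called higher and none lower, where 37.4% of all members and 10.4% of all genes were called higher. Zc3h14, a poly(A)-binding protein, had 206, 192 and 196 CPM against 185, 178 and 184 CPM, a value of 0.12 that was not called although the libraries did not overlap.

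At the threshold on mean CPM, the members just inside were Atp5s at 5.23 CPM and Acyp1 at 5.29 CPM, and the genes just outside were Ptrhd1 at 4.97 CPM and Efcab11 at 4.86 CPM. Their log2 fold changes in clone C5 against the parental cells were 0.22, 1.05, 0.22 and 0.22. Atp5s and Acyp1 passed only through their C5 libraries, with means of 4.84 and 3.91 CPM over the other 6, so these values show nothing about the threshold.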

How the data were processed

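Per the labels' protocols, RNA was taken from untreated cultures and sequencing libraries were prepared with a KAPA mRNA HyperPrep kit. The authors deposited RSEM expected counts per gene, 1 column per library, all whole numbers, so rounding changed none. The submitters' processing notes name STAR 2.5.2, RSEM 1.3.0, DESeq2 1.10.1 and build GRCm38, with no roles. The annotation release and strand setting are not given in the sources used here. RSEM divides reads shared by similar genes by an estimate. Symbols and positions came from GENCODE M21 (GRCm38), which held 54723 of 54838 identifiers.

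Counts were tested with edgeR 4.0.16 in R 4.3.3 (glmQLFit and glmQLFTest) after filterByExpr (minimum count 10, minimum total 15) and TMM scaling, with all 9 libraries in 1 fit, group as the only term, and Benjamini-Hochberg adjustment over 13153 genes. SE was taken as the size of the log2 fold change without shrinkage over the root of F. CPM is after TMM scaling, and plain CPM selects the same 321 members. The test was also run on simulated counts, whose outcome is not given here and on which no result rests. Members, lists and tests were chosen with earlier results of these data known.

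The rule for named genes took the member with most counts per window and, for the knockout clone, the 5 members highest and the 5 lowest without overlap. It added the 3 highest and 3 lowest called members of the control clone, the 2 members of each list with most counts, members at segment boundaries and the genes nearest the threshold. Other genes were named after their values were seen. Alternatives were DESeq2 1.42.0 as test or scaling, total counts, no filter, a replicate block, fits of only 2 groups and each library left out. Members were also taken at a mean of 1 or 20 CPM or without overlaps, and windows at 5 or 20 Mb. Some genes that the rule takes are not reported here.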

Additional observations from a re-analysis of the deposited data

How the results depend on the processing

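The median member was positive in clone C5 against the parental cells under all alternatives. It was 0.23 with scaling to total counts, 0.29 for the 361 members at a mean of at least 1 CPM and 0.30 for those without overlaps, and 0.26 to 0.29 with 1 library left out. Called members were 64 higher with only these groups fitted (52 to 147 with 1 library left out) and 9 lower at 1 CPM or 1 without overlaps (2 to 9). For clone E4 against clone C5 the median was -0.19 with total counts, -0.21 with the replicate block, -0.20 with only these groups fitted, -0.19 at 20 CPM and -0.25 without overlaps (-0.22 to -0.18 with 1 library left out, when 85 to 145 were called lower and 7 to 31 higher). The share of windows above the median of all genes was 8.33%, with 20.8% for 5 Mb windows, 0% for 20 Mb windows and 0% to 8.33% with 1 library left out. For E4 against the parental cells the median was 0.02 with total counts and 0.00 without overlaps, and with only these groups fitted 64 were called lower and 100 higher (21 to 49 and 21 to 74 with 1 library left out). The calls over all genes also moved. They were 1525 for clone C5 against the parental cells with only these groups fitted, and 1472 to 4102 with 1 library left out. For E4 against the parental cells they were 6840 and 2515 to 5693. In the main fit 2814 and 4131 genes were called. Fewer samples or members enter some of these fits, and otherwise the cause was not tested. Of 1935 values of named genes under alternatives, 133 lost and 56 gained a call. None that passed the test in either setting changed sign, while some that passed it in neither did.

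Replicate numbers did not pair the samples: the deviations of 9 same-numbered pairs correlated at -0.134 to 0.212, and the best partner had the same number in 8 of 18 cases. With a replicate block, 99 members were called higher and 3 lower in clone C5 against the parental cells. The control libraries' spread and 3 libraries a group limit the precision, and no second clone of either kind was analysed here.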
